A study of Solanum lycopersicum with 9 samples.

Results

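The genes described here are those whose transcripts were lowest in the central zone (CZ) of the tomato shoot apical meristem (SAM) and already higher in the peripheral zone (PZ). A gene was taken when its normalized count reached at least 6 in at least 1 library and its highest value in the 3 CZ libraries lay below its lowest value in the 6 libraries of the PZ and the leaf primordium (LP). Of 4044 genes at that minimum, out of 34866 in the table, 86 (2.13%) had this pattern. From these, 6 genes whose 3 LP libraries all lay above the 3 PZ libraries were left out, as were 4 further genes that the study lists among its chloroplast-targeted proteins. The remaining 76 genes are the members. Since the values of all 9 libraries chose them, their differences between zones are given as a description. Calls from the fits over all genes are counted for them below, but are no independent evidence of these differences.

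Stem cells at the centre of the meristem renew themselves at a low rate of division. Their daughters are displaced outward into the PZ, where leaves begin as primordia on the flanks. Plastids change along the same path. Undifferentiated proplastids of the CZ acquire thylakoids and chlorophyll in the PZ, and those of the LP are developed further. Genes lowest in the CZ are compared here across zones cut by chlorophyll fluorescence. The study states that this fluorescence does not match the known expression patterns that mark the zones of the meristem.

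The zones were cut by laser from 10 µm cryosections of shoot apices of M82 SP+ seedlings, 12 to 14 days old, grown aseptically with 11 h of light a day and 13 h of dark. They represent 3 successive stages, labelled by their plastids, with CZ cells containing proplastids and no chlorophyll, PZ cells with partially developed thylakoids, and LP cells with highly developed thylakoids, taken from the lower (abaxial) side of young primordia. Because chlorophyll fluorescence guided the cutting, greening was part of the choice of tissue, and each library pools sections whose seedlings are not named, so zones may share plants. All seedlings were of the same line and no treatment was compared. Transcripts were read by CEL-Seq, which tags the 3′ end of each transcript, so that counts do not scale with transcript length.

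The 9 libraries, numbered 1 to 3 within each zone (CZ1 and so on), held 40286 to 144665 reads on genes, with CZ1 the deepest and LP3 the shallowest. A single read was worth 0.288 normalized counts in CZ1 and 1.09 in LP3. STM, which maintains the meristem, had 9.81, 4.67 and 17.0 normalized counts in CZ, 12.3, 1.48 and 4.83 in PZ, and 1.3, 0.60 and 1.09 in LP. It was lower in LP than in CZ (log2 fold change −2.39, standard error 0.64, adjusted p = 0.0184 by limma over all genes), and the abaxial identity gene YABBY1 was higher (1.94, standard error 0.45, adjusted p = 0.00248). CUC2, which marks organ boundaries, averaged 4.25 ± 2.05 in LP and 14.4 ± 6.26 in CZ (SD, n = 3 each), and YABBY3 averaged 11.1 ± 6.15 in LP and 2.67 ± 1.63 in CZ. Neither passed the test (adjusted p = 0.0745 and 0.128 by limma). Neither STM nor CUC2 separated the PZ from the CZ libraries. In pieces of tissue, fewer cells of a type and less RNA per cell cannot be told apart.

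Few of the members could be named from the sources used here. From the part of the gene descriptions that could be read, one was at hand for 1 of 76 members (1.32%) and for 109 of 4044 genes tested (2.7%), so the others are given by their identifiers and by their positions on the tomato genome SL2.50. The described member is Solyc01g010870.2, a dehydration-responsive family protein with a putative methyltransferase domain, on chromosome 1 from 6308507 to 6315760. It had 1.44, 1.33 and 1.70 normalized counts in CZ, 3.08, 2.22 and 6.21 in PZ, and 1.73, 1.81 and 3.28 in LP. Its gap was among the narrowest, 1.73 in LP1 against 1.70 in CZ3.

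More can be said of the genes that the study names. Of the 56 chloroplast-targeted genes in its lists, 6 (10.7%) had their 3 lowest values in the CZ, against 2.13% of all genes tested. The study chose this list on these samples, so it is not independent evidence of the direction. In 4 of the 6 the PZ and LP libraries overlapped. GS2, the plastid glutamine synthetase that assimilates ammonium, had 2.31, 4.67 and 3.4 normalized counts in CZ, 12.3, 9.62 and 11.7 in PZ, and 10.4, 10.9 and 6.55 in LP. Its PZ libraries were thus about as high as its LP libraries. PSBX, a small subunit of photosystem II, had 8.94, 20.7 and 12.8 in CZ, 23.1, 29.6 and 29.0 in PZ, and 31.5, 56.1 and 29.5 in LP. For PSAN, a photosystem I subunit on the lumen side, the CZ averaged 11.6 ± 4.07, the PZ 21.4 ± 2.66 and the LP 28.9 ± 7.16 (SD, n = 3 each). For the photosystem I antenna gene LHCA4 the means were 3.97 ± 0.56 in CZ, 9.12 ± 4.26 in PZ and 18.6 ± 8.64 in LP. PSBO, of the oxygen-evolving complex, and RPL6, of the large plastid ribosomal subunit, had all LP libraries above all PZ libraries. None of the 12 transcription factors and developmental genes that the study lists had the pattern.

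Of all normalized counts, the members together took 0.882 ± 0.152% in CZ (SD, n = 3 here and below), 1.99 ± 0.280% in PZ and 2.31 ± 0.370% in LP. As sums of normalized counts this was 362, 451 and 324 in CZ, 768, 1055 and 914 in PZ, and 978, 1262 and 849 in LP. The mean of the 6 PZ and LP libraries was 2.56 times that of the CZ libraries, which follows from the choice of the genes. How the 6 libraries lay among themselves was only partly set by the rule, which left out genes with all LP libraries above the PZ. In these sums PZ and LP overlapped. The 3 most abundant members supplied between 29.8% and 45.7% of the sum in a library. Without them the sums were 208 to 245 in CZ, 539 to 740 in PZ and 540 to 827 in LP.

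**Figure D1:**
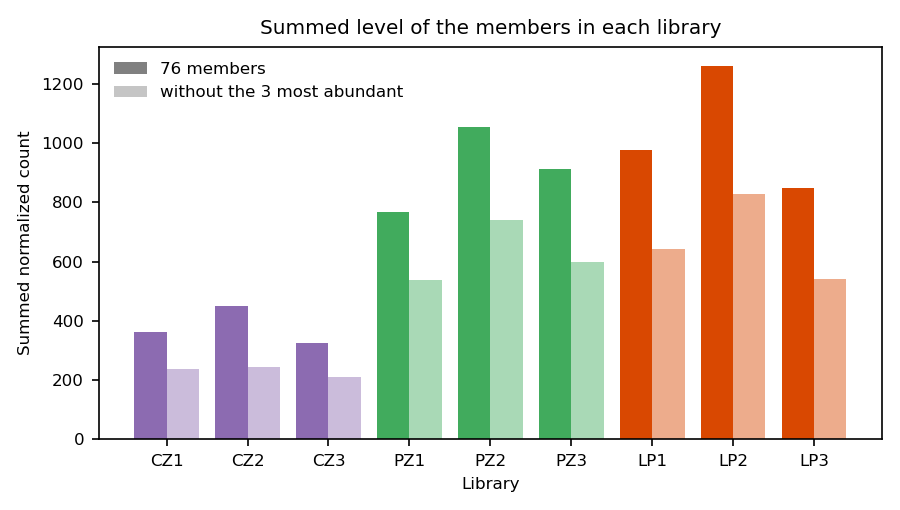
Summed normalized count (y axis) of the 76 members (full colour) and of the members without the 3 most abundant (pale) in each of the 9 libraries (x axis), coloured by zone. The CZ sums lie between 324 and 451, and the PZ and LP sums, between 768 and 1262, overlap each other.

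In each zone the library numbered 2 had the highest sum, with 451 in CZ2, 1055 in PZ2 and 1262 in LP2. Of the 76 members, 24 had their highest value in LP2 and 17 in PZ2, together 53.9%. Since no member can be highest in the CZ, the matching share is that of the genes tested whose highest of the 6 PZ and LP libraries was PZ2 or LP2, which was 37.6%. LP1, LP3, PZ1 and PZ3 were each highest for 7 to 11 members. The sources used here do not say whether libraries with the same number came from the same plants or day, and what LP2 and PZ2 share was not tested. Within the CZ, the highest of the 3 values came from CZ1 for 35 members, from CZ2 for 24 and from CZ3 for 17.

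**Figure D2:**
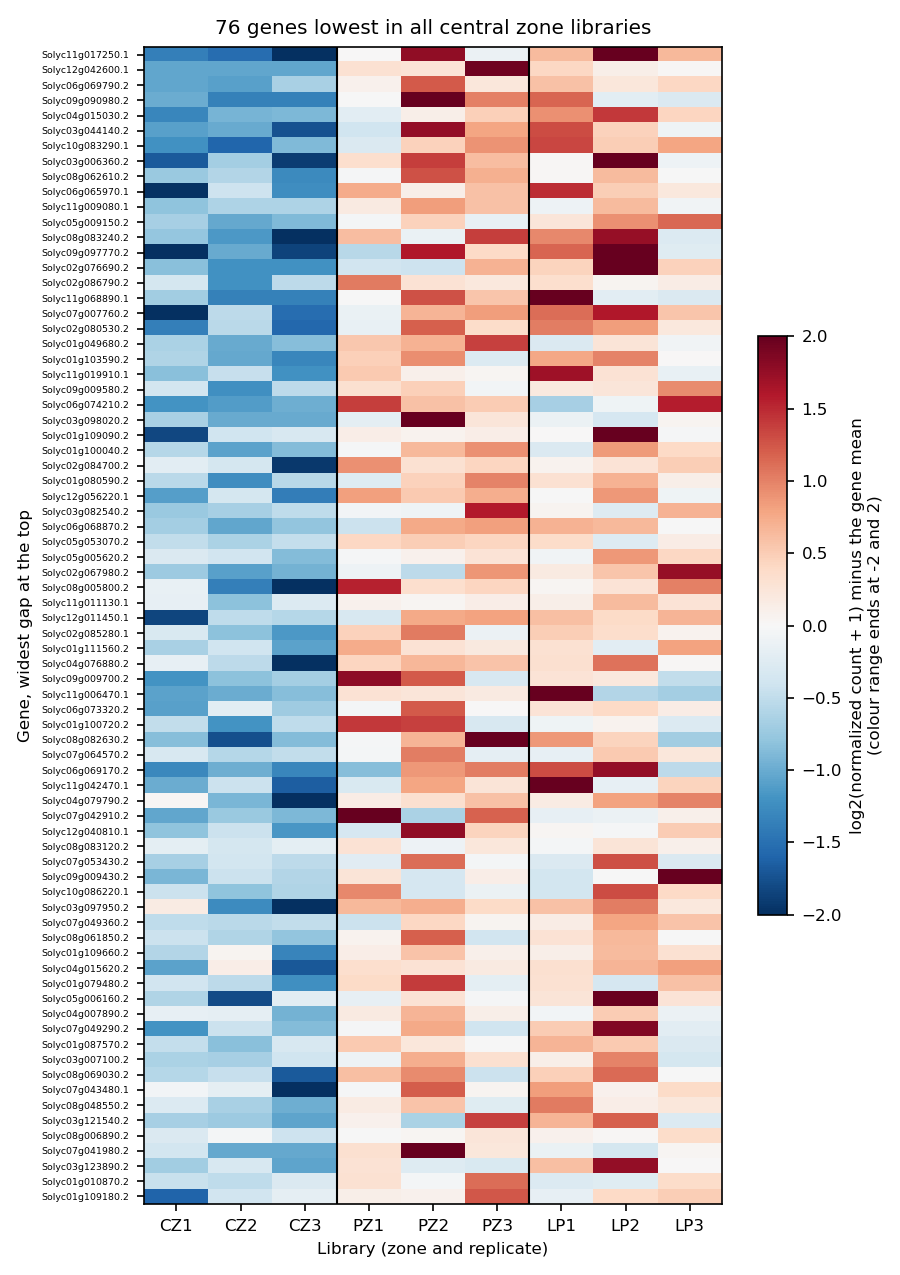
Each row is a member, ordered from the widest gap at the top to the narrowest at the bottom, each column a library, and the colour is log2(normalized count + 1) minus the mean of that gene, red above and blue below. The CZ columns are nearly all blue, and the red of many rows is strongest in PZ2 or LP2.

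The gap of a member is the difference on log2(normalized count + 1) between its lowest PZ or LP library and its highest CZ library. It ran up to 1.25 with a median of 0.19, and was under 0.1 for 25 members. The widest gap was that of Solyc11g017250.1 on chromosome 11, from 8083498 to 8090158. It had 0.87, 0.67 and 0 normalized counts in CZ, 3.85, 15.6 and 3.45 in PZ, and 6.48, 21.1 and 6.55 in LP. PZ2 and LP2 stood out, but even the lowest of the 6 libraries was 3.97 times the highest CZ library. These levels rest on 91 reads in all, and the highest CZ library on 3.

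Some members with wide gaps had little or no transcript in the CZ. Solyc12g042600.1, on chromosome 12 from 39927818 to 39929906, was the only member at 0 in all CZ libraries. Its counts were 1.54, 1.48 and 6.90 in PZ and 1.73, 1.21 and 1.09 in LP, and the lowest of them is a single read. Where no read was found, up to 3 could have been missed, equal to 0.865 normalized counts in CZ1, 2.00 in CZ2 and 2.55 in CZ3. All 6 values were above that limit of CZ1, and 5 of the 6 were below those of CZ2 and CZ3. Such limits cover counting error only, and no fold change is given. Solyc09g090980.2, on chromosome 9 from 70349933 to 70352154, had 0.29, 0 and 0 in CZ, 1.54, 9.62 and 4.14 in PZ, and 4.75, 1.21 and 1.09 in LP. Solyc03g044140.2, on chromosome 3 from 8196830 to 8208158, had 0.58, 0.67 and 0 in CZ, 1.54, 10.4 and 4.83 in PZ, and 7.34, 3.62 and 2.18 in LP. In all 3 genes the spread within PZ was several-fold, and the PZ and LP ranges overlapped.

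Others were well detected in the CZ and still apart from it. Solyc06g069790.2, on chromosome 6 from 43459950 to 43460960, was at 6.92, 6.67 and 9.36 in CZ, at 16.2, 37.0 and 17.9 in PZ, and at 23.3, 18.1 and 20.8 in LP. Solyc04g015030.2, on chromosome 4 from 5235855 to 5242100, had 4.90, 6.67 and 6.81 in CZ, 11.6, 14.8 and 19.3 in PZ, and 26.3, 38.0 and 18.6 in LP. Solyc06g069790.2 was level beyond the CZ, while Solyc04g015030.2 had a higher mean in LP than in PZ, with 1 LP library (18.6 in LP3) inside the PZ range. Solyc11g009080.1, on chromosome 11 from 3200299 to 3203798, belonged with the level ones, with 8.08, 9.34 and 9.36 in CZ, 17.0, 27.4 and 22.8 in PZ, and 13.8, 23.5 and 14.2 in LP.

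Another 4 members completed the 10 widest gaps. Solyc10g083290.1 (chromosome 10, 63110326 to 63115912) averaged 1.17 ± 0.52 in CZ, 5.76 ± 2.60 in PZ and 8.45 ± 2.90 in LP. Solyc03g006360.2 (chromosome 3, 957564 to 960186) averaged 1.78 ± 1.35, 11.5 ± 4.92 and 12.7 ± 12.0 in these zones, where the LP spread came from 26.6 in LP2 against 6.05 and 5.46 in LP1 and LP3. The PZ mean was the highest for Solyc08g062610.2 (chromosome 8, 51568150 to 51571604), at 2.64 ± 0.84 in CZ, 9.95 ± 4.71 in PZ and 6.71 ± 2.03 in LP. Solyc06g065970.1 (chromosome 6, 41353384 to 41353964) had 3.01 ± 2.13, 11.0 ± 2.56 and 14.0 ± 7.39 in CZ, PZ and LP (SD, n = 3 each throughout). In each of these the PZ and LP libraries overlapped.

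**Figure D3:**
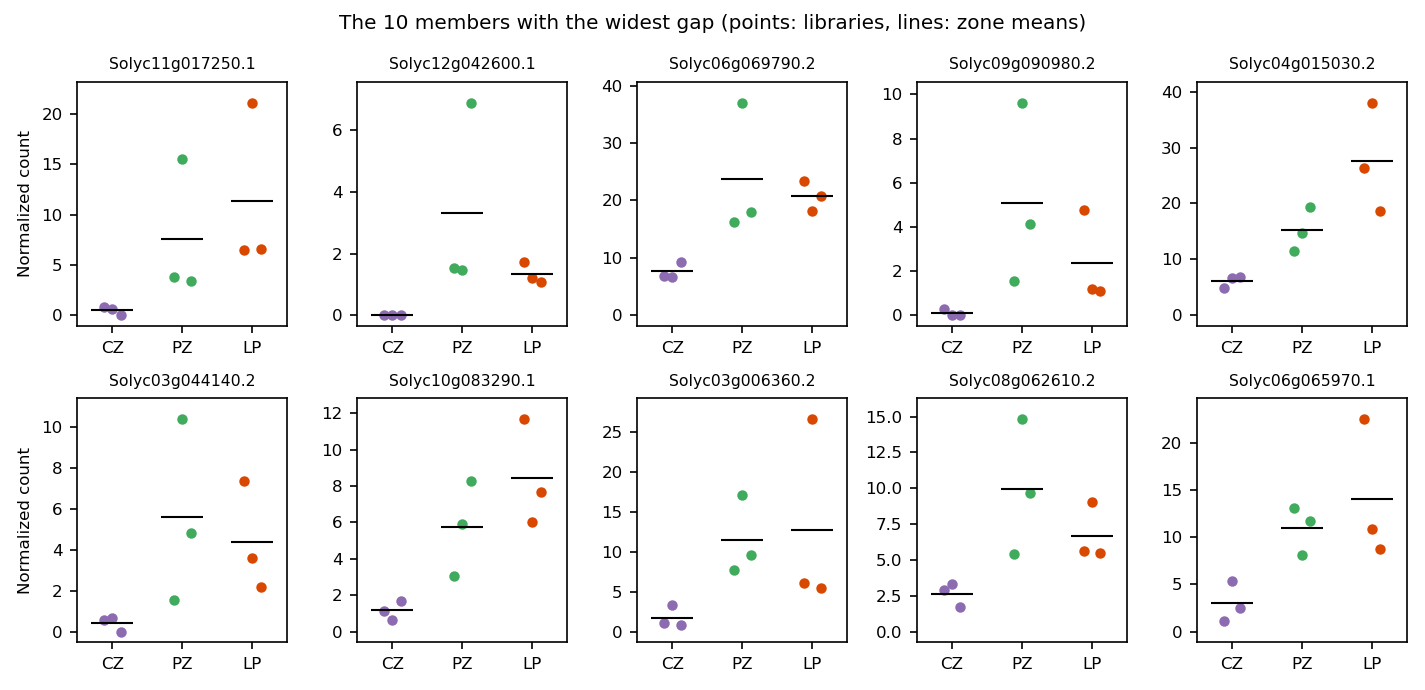
Normalized count (y axis, its own scale in each panel) by zone (x axis) for the 10 members with the widest gap, with a point for each library and a line at the mean of the zone. No CZ point reaches a PZ or LP point, and within PZ and LP single libraries often lie far above the other two, as in Solyc11g017250.1 with 15.6 in PZ2 and 21.1 in LP2.

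By mean normalized count over the 9 libraries the members ranged between 1.47 and 109, with a median of 4.92, against a median of 4.14 for all genes tested. In 16 members the mean was at least 10, and in 17 it was below 3. In 61 members no CZ library reached the minimum of 6, while 8 members were at or above 6 in all 9 libraries. The rule favours such low CZ values, since the CZ had to be lowest and 1 library at 6 was enough. The share for all genes tested is not given here.

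The most abundant member was Solyc07g007760.2, on chromosome 7 from 2394267 to 2396320. It had 12.4, 55.4 and 27.2 normalized counts in CZ, 73.2, 130 and 144 in PZ, and 175, 246 and 118 in LP. Though the CZ libraries differed several-fold among themselves, the lowest outer value, 73.2 in PZ1, was above the highest CZ value, 55.4 in CZ2. Solyc09g097770.2, on chromosome 9 from 71790220 to 71791711, had 1.73, 5.34 and 2.55 in CZ, 7.71, 37.8 and 15.9 in PZ, and 27.6, 83.3 and 9.83 in LP. In both genes the means increased at each zone, and the LP and PZ libraries overlapped.

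In 5 other abundant members the zones lay closer together. The mean of their PZ and LP libraries, pooled, was below 2 times the CZ mean. Solyc08g006890.2, on chromosome 8 from 1457076 to 1460413, had 67.8, 81.4 and 62.1 in CZ, 82.5, 85.9 and 98.6 in PZ, and 88.1, 85.1 and 108 in LP, so that the PZ and LP mean was 1.3 times the CZ mean. The same ratio was 1.3 for Solyc08g083120.2 (chromosome 8, 65675154 to 65676834), 1.80 for Solyc01g109660.2 (chromosome 1, 96560713 to 96562195), which is among the members called between LP and CZ, 1.80 for Solyc05g053070.2 (chromosome 5, 63207864 to 63209075) and 1.83 for Solyc07g049360.2 (chromosome 7, 59634323 to 59637087). The call of Solyc01g109660.2 was made by limma, as described below. It was lost by edgeR and DESeq2, with TMM scaling, under every other filter and in a fit of the LP and CZ alone. It was also lost without CZ3, LP1, LP2 or LP3. Solyc07g049360.2 had even CZ values of 11.0, 10.7 and 11.1, just under 11.6 in PZ1. Solyc05g053070.2 was even within the CZ and the PZ, with 19.3, 17.3 and 19.6 in CZ, 37.0, 39.2 and 37.2 in PZ, and 35.8, 22.9 and 30.6 in LP. It was highest in the PZ, and its LP libraries lay between the other zones.

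Over the 75 members with reads in the CZ, the mean of the PZ and LP libraries was a median 3.29 times the mean of the CZ libraries. This ratio was at least 2 for 66 members and at least 4 for 28. On the log2(normalized count + 1) scale, which understates the change of weak genes, the median difference was 1.25 between LP and CZ and 1.22 between PZ and CZ, where the medians of all genes tested were 0.02 and 0.08. Both comparisons share the CZ libraries and both were used to choose the genes.

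The PZ and LP libraries overlapped in 73 of the 76 members, which the rule partly set. The share of all genes tested with such overlap is not given here. The mean log2 value was higher in LP for 39 members (51.3%) and higher in PZ for 37. For all genes tested it was higher in LP for 47.8%. The difference between LP and PZ had a median of 0.02, with the middle of the members between −0.32 and 0.31 (quartiles), and was under 0.5 in size for 50 of the 76 members (65.8%), against 52.8% of all genes tested. By leaving out genes with all LP libraries above the PZ, the rule trimmed one side of this distribution. Its other side was not trimmed, and 3 of the 76 members had all PZ libraries above all LP libraries, as did 5.93% of all genes tested. These were Solyc05g053070.2, Solyc01g049680.2 with 3.85, 4.44 and 7.59 in PZ against 1.73, 3.02 and 2.18 in LP, and Solyc07g041980.2 with 1.54, 8.88 and 1.38 in PZ against 0.86, 0.60 and 1.09 in LP. Solyc07g041980.2 rests on 22 reads in all. Between LP and PZ no member met the call described below. Of all genes tested, 0.124% were called higher and 0.0247% lower in LP by limma, 0.346% and 0.272% by edgeR, and 0 genes by DESeq2. At an unadjusted p up to 0.05, limma gave 1 member higher and 0 lower in LP (all genes 3.66% and 3.41%), edgeR 5 and 1 (4.25% and 3.34%), and DESeq2 1 and 1 (2.92% and 2.3%).

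Single libraries carried several members. In 18 members (23.7%) the highest library was at least 2 times the next one, which was so for 19.2% of all genes tested. In 9 members the highest library was at least 3 times the next, and the matching share of all genes is not given here. Solyc11g006470.1 had 36.3 in LP1 and at most 3.08 in any other library. Solyc03g098020.2 had 15.6 in PZ2 and at most 1.38 elsewhere, and Solyc09g009430.2 had 18.6 in LP3 and at most 3.85 elsewhere. These 3 genes, named after their values were seen, reached the minimum of 6 through that library alone.

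Genes were called where limma gave a change of at least 1.5-fold with an adjusted p up to 0.05. Between LP and CZ 12 of the 76 members met it, all higher in LP, where 1.19% of all genes tested were called higher and 0.247% lower. Between PZ and CZ 3 members met it, all higher in PZ, with 0.223% of all genes called higher and 0.0989% lower. Nothing is read from these counts, since the rule used both contrasts. edgeR called 11 members between LP and CZ (all genes 1.04% higher and 0.297% lower) and 3 between PZ and CZ (0.47% and 0.247%), and DESeq2 called 7 (0.643% and 0.124%) and 0 (0.0247% in each direction). Of the limma calls, edgeR shared 8 of the 12 between LP and CZ and 2 of the 3 between PZ and CZ. DESeq2 shared 7 of the 12. With TMM scaling limma called 5 members between LP and CZ (0.688% and 0.255%), 2 between PZ and CZ (0.127% and 0.102%) and 0 between LP and PZ (0.127% higher and 0 genes lower). The 3 members called in both were Solyc07g007760.2 (log2 fold change 2.64 in LP and 2.01 in PZ, standard error 0.25), Solyc09g097770.2 (2.91 in LP and 2.18 in PZ, standard error 0.45) and Solyc03g006360.2 (2.06 in LP and 2.20 in PZ, standard error 0.56). None of the 3 was called in PZ by DESeq2 or by a fit of the PZ and CZ alone. Solyc09g097770.2 also lost its PZ call without PZ2 and with either filter on means. Solyc03g006360.2 lost its LP call without CZ1, CZ3 or LP2, with TMM scaling, with the filter on zone means, with no filter and in the fit of the LP and CZ alone. Its PZ call was further lost without CZ1, CZ3, PZ2, PZ3 or LP2, under both other scalings, under every other filter and by edgeR. The 12 members called in LP became 5 without CZ3, LP1 or LP2, and the 3 called in PZ became 7 without CZ2 and 1 without PZ2. In the other 64 members neither call was made.

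The gap often came down to a few reads. The lowest PZ or LP value rested on a single read in 12 members and on at most 3 reads in 26, while it rested on at least 10 reads in 16. LP3, the shallowest library, held a single read in 7 of the 12. Conversely, 22 members had 0 in at least 1 CZ library, and of the CZ libraries 20 members were at 0 in CZ3, 7 in CZ2 and 2 in CZ1, with 51659, 64993 and 144665 reads. When the highest CZ and the lowest PZ or LP library of a member, the pair that decides the rule, were each given their exact Poisson interval (95%, counting error only), the intervals overlapped in all 76 members. Other pairs of libraries were not compared in this way, and overlap of the intervals is not a test of the difference.

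Around the edge of the rule, members and other genes differed little. The narrowest gaps of members, besides Solyc01g010870.2, were those of Solyc01g109180.2 with 1.73 in LP1 against 1.70 in CZ3, Solyc03g123890.2 with 0.69 in PZ3 against 0.67 in CZ2, Solyc07g041980.2 with 0.60 in LP2 against 0.58 in CZ1, and Solyc08g006890.2 with 82.5 in PZ1 against 81.4 in CZ2. Just outside, 21 genes had a gap of exactly 0 because both values were 0. Of the genes with reads in all PZ and LP libraries, the nearest were Solyc11g073130.1 with 1.3 in LP1 against 1.33 in CZ2, Solyc06g075810.2 with 16.4 in LP1 against 16.7 in CZ2, Solyc01g008600.2 with 4.22 in LP2 against 4.33 in CZ1, Solyc04g014570.2 with 3.08 in PZ1 against 3.17 in CZ1, and Solyc11g072190.1 with 29.6 in PZ2 against 30.3 in CZ1.

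**Figure D4:**
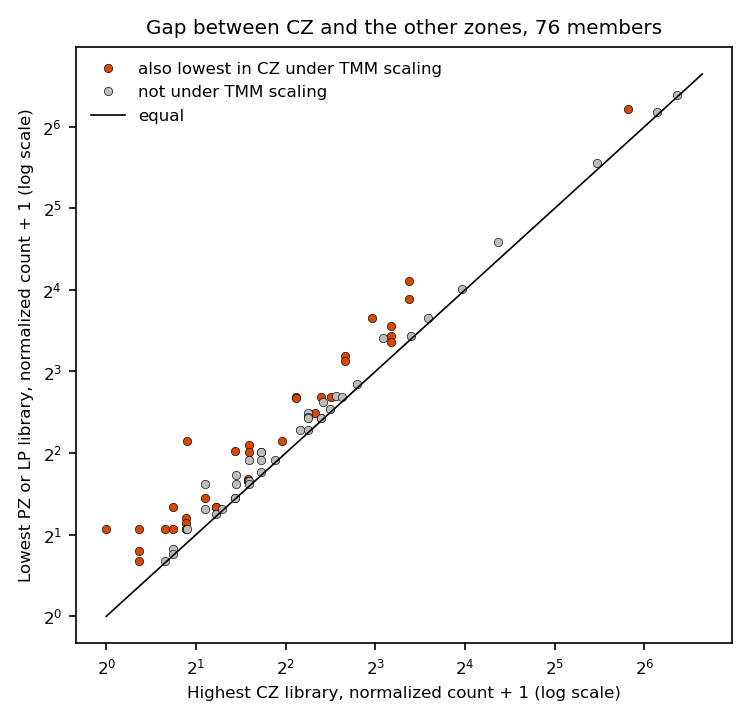
For each member, the lowest PZ or LP library (y axis) against the highest CZ library (x axis), both as normalized count + 1 on a log2 axis, with the line of equal values. Members that were also members under TMM scaling are orange (37) and the others grey (39), and many grey points lie next to the line.

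Membership depended on how the libraries were scaled against each other. TMM scaling, which sets library factors from the bulk of the genes, put CZ1 at 1.26 and LP1 at 1.17 times the deposited scale and the other libraries at 0.89 to 1.02 times. The median log2 difference of all genes between PZ and CZ was −0.15 with it and 0.08 on the deposited scale. Under it 37 of the 76 genes remained members, and under the same total for each library 54, and 36 remained under both. With TMM scaling 35 of the 76 were no longer lowest in all CZ libraries, and another 4 still were but left the members, 3 because no library reached the minimum of 6 and 1 because its LP libraries then all lay above the PZ. With the same total these numbers were 18, 4, 1 and 3. Of the 10 members with the widest gap, 10 remained under TMM scaling and 9 under the same total, where Solyc04g015030.2 was lost. Of the 10 most abundant, 5 remained under each. The mean log2 values of LP and of PZ stayed above those of CZ in all 76 members with TMM scaling, with median differences of 1.18 and 1.05. This is no independent evidence, since the genes were chosen with all PZ and LP values above the CZ on the deposited scale.

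The scaling also set how common the pattern was. On the deposited scale 86 genes (2.13%) had all CZ libraries below the other 6 and 57 (1.41%) had them all above. With the same total these were 64 (1.63%) and 76 (1.93%), and with TMM scaling 47 (1.2%) and 136 (3.46%), which turned the order round. With the PZ apart there were 36 genes lowest (0.89%) and 68 highest (1.68%) on the deposited scale, 45 (1.14%) and 48 (1.22%) with the same total, and 70 (1.78%) and 20 (0.509%) with TMM scaling, which turned this order round too. With the LP apart the order held, at 65 lowest (1.61%) and 113 highest (2.79%) on the deposited scale, 64 (1.63%) and 120 (3.05%) with the same total, and 51 (1.3%) and 116 (2.95%) with TMM scaling. If the 9 libraries of a gene fell in a random order without ties, each of these patterns would be equally likely. On each scale the share of genes lowest in the CZ lay within the range of the other patterns. Those patterns can hold differences between zones too, so this comparison cannot tell how many of the genes arose by chance. Chance is not excluded.

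**Figure D5:**
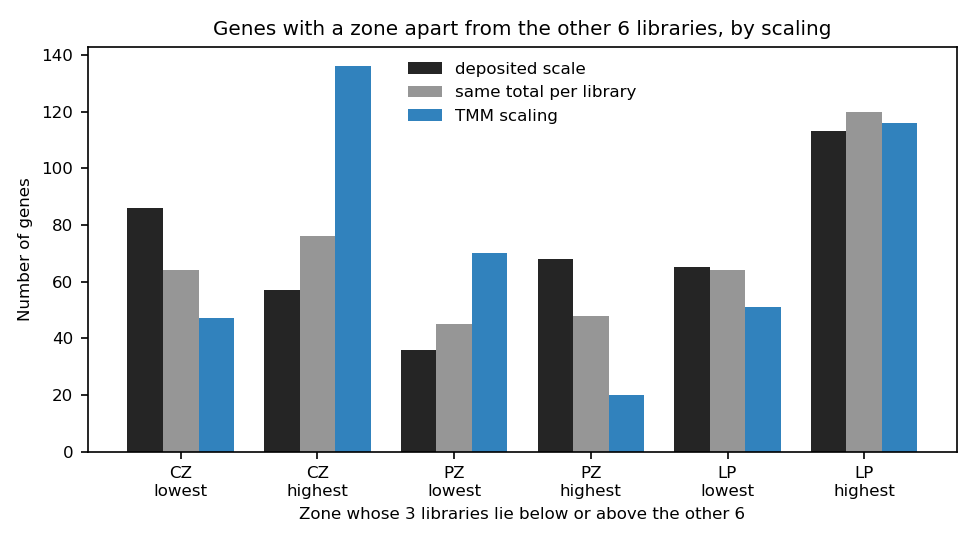
Number of genes (y axis) whose 3 libraries of a zone all lie below (lowest) or all above (highest) the other 6 libraries, for the deposited scale (black), the same total per library (grey) and TMM scaling (blue). Genes lowest in the CZ number 86, 64 and 47, and genes highest in the CZ 57, 76 and 136.

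The members lay on all 12 chromosomes, and none was on the plastid genome. They were 1.88% of all genes tested, and by chromosome between 0.837% on chromosome 10 (2 members) and 3.07% on chromosome 8 (9 members), with 3.06% on chromosome 11 (7 members), 2.68% on chromosome 7 (8 members) and 2.07% on chromosome 1 (12 members). Within 100 kb of another member lay 10 members (13.2%), as 5 pairs, while 6.3% of the other nuclear genes tested lay as close to a member. No pair was adjacent in the table, with 6 to 11 genes between the 2 of a pair. The closest, 33.5 kb apart on chromosome 3, were Solyc03g097950.2, at 5.19, 1.33 and 0 in CZ, 7.71, 8.14 and 6.21 in PZ and 7.34, 10.3 and 5.46 in LP, and Solyc03g098020.2, the gene carried by PZ2. They thus shared little beyond the low CZ values. The genes of the members spanned a median 3.27 kb, against 4.15 kb for all genes tested.

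A panel of genes was also measured by quantitative PCR on amplified RNA, whose values are not used here. It had 88 genes among those tested, of which 21 were members. That is 27.6% of the members and 23.9% of the panel, against 2.18% of all genes tested. The panel was picked from candidates for differential expression in these same libraries, so the share is not independent of the pattern. It held 7 of the 12 members called between LP and CZ. Among the 10 widest gaps, all but Solyc12g042600.1 and Solyc10g083290.1 were in the panel.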

How the data were processed

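The table of 34866 genes holds a signal that the authors deposited as normalized counts. According to the study's methods, reads were aligned with Bowtie2 2.1.0 to tomato SL2.50 with the chloroplast genome added and counted by an HTSeq-based script, and DESeq2 1.4.0 was used for differential expression. How the counts were normalized and whether molecular identifiers were collapsed is not given in the sources used here. Dividing by the value of 1 read in each library gave whole reads for 100% of the values above 0 (tolerance 0.0051).

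Zones were compared with limma 3.58.1 in R 4.3.3 on log2(normalized count + 1), fitted to all 9 libraries with a variance trend and Benjamini-Hochberg adjustment over the 4044 genes. edgeR 4.0.16 and DESeq2 1.42.0 were run on the recovered reads as alternatives. In the comparisons LP to CZ, PZ to CZ and LP to PZ, limma called 48, 9 and 5 genes higher and 10, 4 and 1 lower, and edgeR called 42, 19 and 14 higher and 12, 10 and 11 lower. Further alternatives were pseudocounts of 0.5 and 2, other filters and scalings, a replicate block, a gap of at least 1.5 times, and leaving out each library. The members, lists and tests were chosen with earlier results of these data known. Genes named are the 10 members with the widest gap, the 10 most abundant, those at 0 in all CZ libraries, called in both comparisons with CZ or described, the 5 narrowest gaps and the 5 nearest genes outside, where ties at 0 were passed over after the values were seen. Lists by description were not run, since 1 member is described. The replicates are separate samples of pooled sections, and the sources do not say which plants gave which library, so the p-values measure the spread between these samples. Reads were short, so near-identical genes may share them. Promoters were not analysed here.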

Additional observations from a re-analysis of the deposited data

How the results depend on the processing

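The 76 members became 40 with TMM scaling, 46 with a minimum of 6 in the mean of a zone, 160 with no filter and 18 with a gap of at least 1.5 times, and 85 to 196 when a library was left out. They were 196, 146 and 132 without CZ1, CZ2 and CZ3, because fewer libraries then had to be lowest. Of the members called between LP and CZ (12), 5 remained with TMM scaling or the filter on zone means, 4 with no filter, 7 by DESeq2 and 3 with only these zones in the fit, and 5 to 13 were called when a library was left out. Between PZ and CZ (3 called) the number was 1 with either filter on means, 0 by DESeq2 or with only these zones, and 1 to 7 when a library was left out. The replicate block gave 15 and 7 in these comparisons. The numbers do not establish pairs: deviations of same-numbered libraries correlated at 0.0272 to 0.112, over 0.1 in 2 of 9 pairs, though each of the 9 libraries correlated best with its own number. Between LP and PZ 0 members were called under every alternative, by limma, edgeR and DESeq2. Nothing is read from this, since the rule had left out genes with all LP libraries above the PZ. Of all genes tested, limma called only 0.124% higher and 0.0247% lower in LP. The ratio of the members' sums, 2.56 for PZ and LP over CZ, was 2.24 to 2.83 under its alternatives, and the number of members higher in LP than in PZ, 39, was 30 without LP2 and 49 without PZ2, its extremes. Except where stated, the cause was not tested. Depth limits most members, at a median of 73.5 reads over the 9 libraries.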

Other observations

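The 6 genes left out because all LP libraries lay above all PZ libraries include 4 outside the study's lists of chloroplast-targeted proteins and of developmental genes. Whether the study's full set of differentially expressed genes holds them was not looked up. Solyc12g094620.1 had 5.48, 14.7 and 2.55 normalized counts in CZ, 23.9, 31.1 and 22.1 in PZ, and 69.1, 95.4 and 49.2 in LP, and Solyc12g006470.1 had 7.21, 6.67 and 2.55 in CZ, 12.3, 8.88 and 12.4 in PZ, and 16.8, 15.1 and 22.9 in LP. In both the 3 zones were apart in every library. Solyc09g082660.2 and Solyc12g057120.1 were close to their CZ level in the PZ, with means of 0.42 ± 0.36 in CZ and 0.98 ± 0.43 in PZ for the first and 0.42 ± 0.36 in CZ and 0.73 ± 0.04 in PZ for the second, and had 8.0 ± 5.95 in LP for the first and 3.87 ± 3.28 for the second (SD, n = 3 each). Their PZ values of 0.69 to 1.48 are 1 or 2 reads a library, so that a place between CZ and LP is not resolved at this depth. Of these 6 genes, 3 of the 4 outside those lists lie on chromosome 12, as does RPL6.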
